A study of Homo sapiens with 16 samples.

Results

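10 genes that the transcription factor p53 is known to activate, and that act on cell-cycle arrest, growth signalling, RNA stability or survival, were followed through depletion of TPX2 in a neuroblastoma line. They are CDKN1A, SFN, BTG2, PLK2, PLK3, PHLDA3, GDF15, ZMAT3, TRIAP1 and AEN. The genes were taken by symbol, and each symbol matched 1 of the 58787 Ensembl identifiers in the table of counts. 9 of the 10 passed the filter on low counts that left 14193 genes for testing, and SFN did not. The cells were IMR32, an established human neuroblastoma line that carries amplified MYCN. Depletion used 3 small interfering RNAs (siRNAs) directed at TPX2, which the labels name si45, si46 and si47. Each was set against a non-targeting siRNA, siNTC, with 4 libraries per group and 16 in all. Per the table's headers the cells were taken at 48 h. All groups received an siRNA, and the design text calls the 4 libraries of a group biological replicates.

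p53 is held at a low level in unstressed cells by the ubiquitin ligase MDM2, which p53 itself induces. When damage, a lengthened mitosis or other stress stabilises p53, it binds a response element built of repeated decamers near its targets and raises their transcription. Some of these targets stop the cycle, such as CDKN1A, which encodes the cyclin-dependent kinase inhibitor p21, and others restrain growth signals, steer RNA turnover or support survival. TPX2 is a spindle protein that activates the mitotic kinase AURKA, so its loss disturbs mitosis.

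The libraries came from a 3' end kit, which reads transcripts at 1 end whatever their length, so levels were set side by side between genes without a length correction. How PCR duplicates were handled is not given in the sources used here, so a read is not shown to be a separate transcript. Levels are given as CPM, the read count as a share of the scaled library size in the customary CPM unit. Total counts ran from 5318159 to 7864343 per library. TPX2, the targeted gene, stood at 297 to 359 CPM with siNTC. It stood at 79.4 to 121 CPM with si45, at 62.2 to 93.8 CPM with si46 and at 68.7 to 76.3 CPM with si47, and each siRNA group differed from siNTC (two-sided exact permutation p = 0.0286, the smallest that 4 against 4 libraries allow). All 14 markers of neuroblastoma identity were detected, with TH at no more than 5.03 CPM. Their summed level was 6786 to 7309 CPM in siNTC and 7328 to 8772 CPM in the knockdown libraries, so these groups did not overlap. Taken singly, 1.49% of all genes tested were above every control in all 12 knockdown libraries. Of the 14, HAND2, TBX2 and CHGA rose by 0.23, 0.33 and 0.67 and DBH fell by 0.56 on the log2 scale (edgeR adjusted p = 0.0193, 0.00378, 0.0431 and 1.3e-05). These values are for the mean of the 3 siRNAs against siNTC, where 7.14% of all genes tested changed. By siRNA, DBH was called under each, TBX2 under si45 and si46, CHGA under si46 and si47, and HAND2 and GATA3 under si47 alone. The 9 markers of blood and endothelial cells summed to at most 3.29 CPM in any library, with CD3E, LYZ and HBB at 0. The 11 fibroblast or Schwann markers summed to 80.6 to 97.8 CPM in siNTC and 64.3 to 124 CPM in the knockdown libraries, with SOX10 at 0. The part of these markers in the results was not tested.

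All 9 tested targets were higher after TPX2 depletion than in the control (edgeR quasi-likelihood test, Benjamini-Hochberg adjusted p under 0.05 over 14193 genes) when the mean of the 3 siRNAs was set against siNTC. In that comparison 3.61% of all genes tested were higher. The log2 fold changes ran from 0.38 for AEN to 2.75 for GDF15, with a median of 1.79 beside a median of -0.0011 over all genes tested. 7 of the 9 were higher under si45, where 1.01% of all genes were, 7 under si46 (2.14% of all genes) and 9 under si47 (4.91% of all genes). The members not called were TRIAP1 and GDF15 under si45 and TRIAP1 and AEN under si46, and 0 were lower under any siRNA. 6 were called under each of the 3 siRNAs, beside 0.909% of all genes. All 12 depleted libraries exceeded every control for 8 of the 9, TRIAP1 being the exception, beside 1.49% of all genes tested. The 3 siRNAs share their 4 control libraries, so the comparisons are not independent of each other. RNA was measured over whole cultures, in which a rise in all cells and a larger rise in some cells cannot be told apart.

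**Figure D1:**
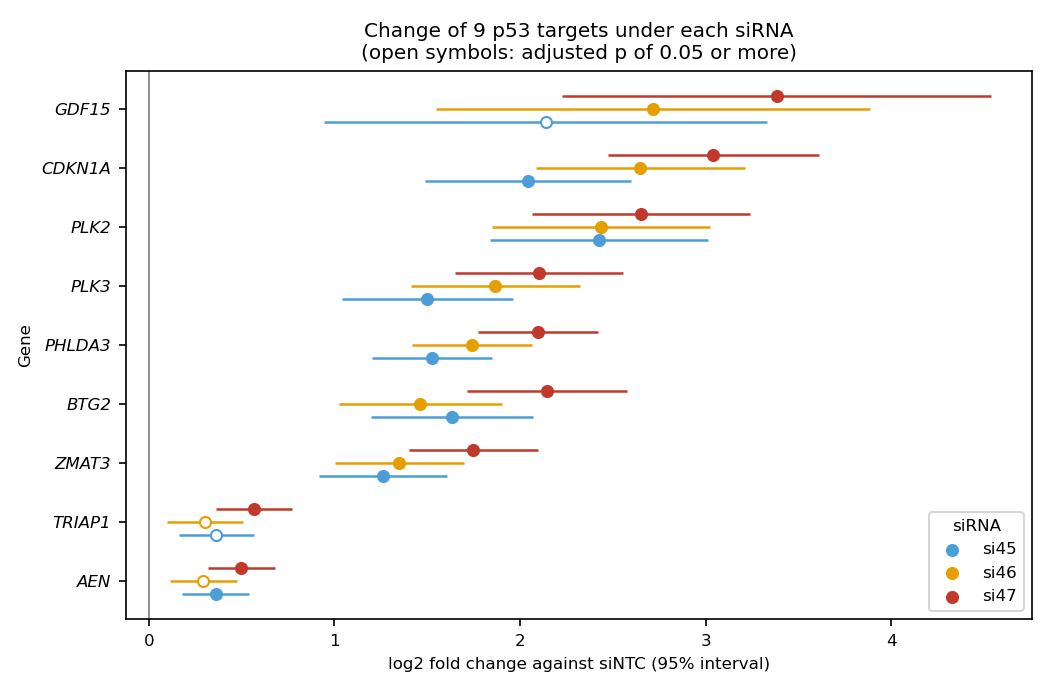
log2 fold change of the 9 tested targets against siNTC (horizontal axis) for each gene (vertical axis), with 1 symbol per siRNA and bars for 95% intervals from the edgeR fit. GDF15, CDKN1A and PLK2 lie furthest to the right, TRIAP1 and AEN lie below 0.6, and the open symbols (adjusted p of 0.05 or more) are GDF15 and TRIAP1 under si45 and TRIAP1 and AEN under si46.

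Sequence near the start of the genes was examined because these targets moved together and p53 acts through a known response element. RefSeq promoters of GRCh38.p14, from 250 bases before to 50 after the start, were given for 9 of the 10 genes in 10 windows. PHLDA3 had no entry. The search was for a pair of adjacent p53 consensus decamers, 20 bases in all, each of 3 purines, a core and 3 pyrimidines. Both cores had to read CNNG with A or T at the inner positions, and at most 2 mismatches were allowed in the other 12 positions. The decamer reads the same on both strands. AEN was the 1 member with such a match, and 0.157% of all 35116 promoter windows had one. With 3 mismatches allowed GDF15 was added, and 0.427% of all windows matched. The matches are shown to let the 2 sites be compared, with the cores in capitals.
AEN: gggCTTGcccgggCATGtgg
GDF15: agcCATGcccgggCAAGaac
The AEN match lies on chromosome 15 at 88621306 to 88621325 (plus strand), 34 to 15 bases before the RefSeq start, within the untranslated part of exon 1 of the GENCODE v29 transcript AEN-201. The GDF15 match lies on chromosome 19 at 18386186 to 18386205 (plus strand), 28 to 47 bases after the start, and spans the start codon in exon 1 of GDF15-201. A match is a description of the letters and not a binding site. Response elements outside these windows, with bases between the decamers or with other cores were not searched.

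Before depletion the 10 targets covered a wide range of levels. In siNTC, AEN (159 ± 16.9 CPM; SD, n = 4) and TRIAP1 (149 ± 24.1 CPM) were the most abundant, and their libraries overlapped. CDKN1A (66.7 ± 26.1 CPM) and ZMAT3 (39.8 ± 3.34 CPM) came next and overlapped each other but not TRIAP1. PHLDA3, PLK3, PLK2, BTG2 and GDF15 lay between 4.04 and 13.3 CPM on average, each overlapping its neighbour in that order. SFN was last at 0.381 ± 0.495 CPM. Under each of the siRNAs CDKN1A was first, above AEN in every library, while AEN and TRIAP1 still overlapped each other. CDKN1A supplied 14.5% ± 4.53 (SD, n = 4) of the summed CPM of the 10 targets in controls. With si45 that share was 30.5% ± 1.63, with si46 39.7% ± 2.65 and with si47 41.1% ± 3.17. The summed level itself was 451 ± 59.6 CPM in siNTC and 895 ± 53.9, 1047 ± 102 and 1324 ± 182 CPM in si45, si46 and si47.

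**Figure D2:**
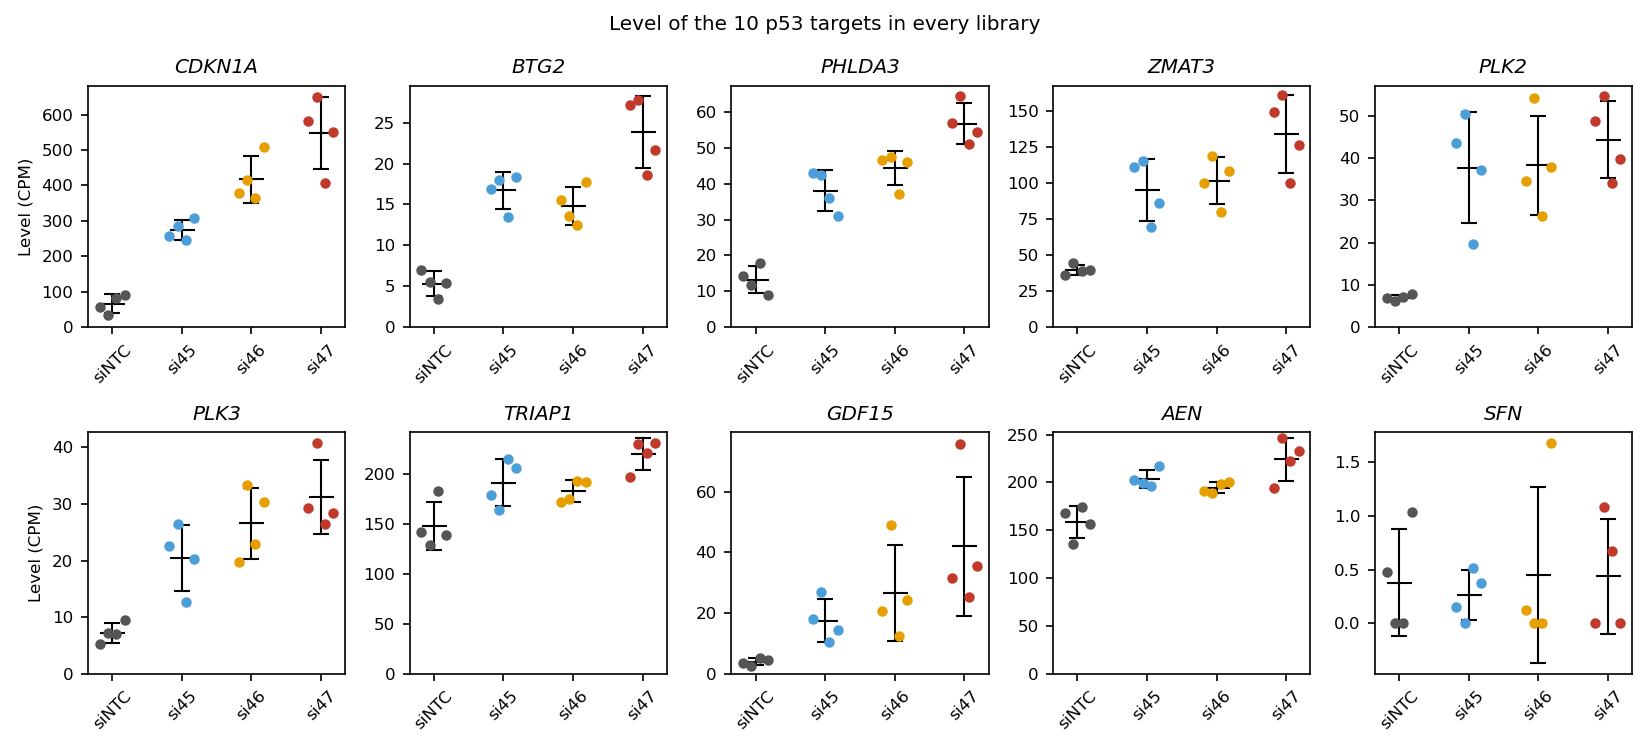
Level in CPM (vertical axis, from 0 except for SFN, whose error bars reach below it) of each of the 10 targets in the 4 groups (horizontal axis), with 1 point per library and bars for the mean ± SD of 4 libraries. The knockdown points lie above all control points for 8 genes, overlap them for TRIAP1, and stay under 2 CPM in every group for SFN.

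CDKN1A (ENSG00000124762, chromosome 6, 36676460 to 36687339 on the plus strand in GENCODE v29 on GRCh38) encodes p21, which binds cyclin-dependent kinases and PCNA and is the main arm of p53-dependent G1 arrest. Its control libraries, in order of replicate number, were at 58.5, 33.6, 83.4 and 91.2 CPM. The si45 libraries were at 258, 284, 246 and 307 CPM, the si46 libraries at 379, 414, 365 and 510 CPM and the si47 libraries at 583, 649, 406 and 551 CPM. The lowest knockdown library thus stood well above the highest control, and the spread within the controls was itself wide. On the log2 scale si45 raised it by 2.04 (SE 0.255), si46 by 2.65 (SE 0.259) and si47 by 3.04 (SE 0.261), with edgeR adjusted p of 9.1e-04, 7.3e-05 and 1.0e-05. Over the mean of the 3 siRNAs the fold was 5.97 (log2 2.58, 95% interval 2.07 to 3.09). DINOL, a non-coding gene on the opposite strand that overlaps CDKN1A, had 0 to 7 counts per library against 215 to 3710 for CDKN1A.

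The other inhibitors and partners of p21 moved less. Of 15 genes listed as cyclin-dependent kinase inhibitors or partners of CDKN1A, 13 were tested, and over the mean of the siRNAs 2 were higher and 1 lower, beside 7.14% of all genes changed in either direction. CDKN1C, the p57 inhibitor and a paralog of p21, rose by 0.71 (SE 0.178, edgeR adjusted p = 0.0156). CCND1, cyclin D1, rose by 0.28 (SE 0.0709), and CDK2, a kinase that p21 inhibits, fell by 0.41 (SE 0.0902). By siRNA, CDK2 was called under si46 and si47, CCND1 under si46 alone, and CDKN1C and CCND3 under si47 alone. Under si45 0 of the 13 were called, beside 1.34% of all genes. Without siNTC replicate 1 the number of changed genes in this list over the mean of the siRNAs was 1 in place of 3. CDKN1B, the p27 inhibitor, had a log2 fold change of -0.08 (SE 0.0916, edgeR adjusted p = 0.678).

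SFN (ENSG00000175793, chromosome 1, 26863138 to 26864457) encodes 14-3-3 sigma, a protein that holds cyclin B and CDK1 in the cytoplasm and is best known from epithelial cells. The control libraries held 3, 0, 0 and 6 counts, the si45 libraries 1, 0, 3 and 2, the si46 libraries 1, 0, 0 and 9 and the si47 libraries 0, 6, 4 and 0. The groups overlapped completely. With no filter on low counts its log2 fold change over the mean of the siRNAs was -0.05 (edgeR adjusted p = 0.9998), and a change in SFN was not detectable at this depth. The 9 epithelial markers summed to 1.88 to 9.65 CPM over all libraries, with KRT5 and KRT14 at 0. The 6 other 14-3-3 genes listed, YWHAB to YWHAZ, were all tested. Over the mean of the siRNAs 0 of them passed, beside 7.14% of all genes, and 1 had an unadjusted p under 0.05, beside 20.4%. Their log2 fold changes ran from -0.08 for YWHAH to 0.17 for YWHAZ, the latter with an edgeR adjusted p of 0.155.

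BTG2 (ENSG00000159388, chromosome 1, 203305491 to 203309602) encodes a small antiproliferative protein that brings the CCR4-NOT deadenylase to messenger RNAs. The control libraries ran from 3.40 to 7.06 CPM, si45 from 13.5 to 18.4, si46 from 12.5 to 17.7 and si47 from 18.7 to 27.8 CPM. All 12 knockdown libraries were above the controls, and the si47 libraries were above all si45 and si46 libraries. Its rise on the log2 scale was 1.63 (SE 0.214) with si45, 1.46 (SE 0.215) with si46 and 2.15 (SE 0.212) with si47. 2 relatives of BTG2 in the BTG/TOB family were also higher. TOB1 rose from 18.8 ± 2.59 CPM (SD, n = 4) in siNTC to 51.6 ± 9.80, 54.2 ± 7.21 and 63.5 ± 11.4 CPM, a mean log2 fold change of 1.58 (SE 0.132, edgeR adjusted p = 3.0e-10). BTG1 rose by 0.59 (SE 0.0828), and BTG3 and TOB2 had values of 0.19 and 0.16 that did not pass (edgeR adjusted p = 0.253 and 0.386). Of the 12 listed genes of the CCR4-NOT complex, 12 were tested and 0 changed under si45, si46 or si47 in edgeR, beside 1.34%, 3.4% and 9.74% of all genes. For the mean of the siRNAs 1 of the 12 had an unadjusted p under 0.05, beside 20.4% of all genes. DESeq2 and limma-voom also called 0 there.

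PLK2 and PLK3 encode polo-like kinases that respond to stress, and PLK2 also has a part in centriole duplication. PLK2 (ENSG00000145632, chromosome 5, 58453982 to 58460260, minus strand) was at 6.89, 6.26, 7.19 and 7.81 CPM in siNTC. The si45 libraries were at 43.6, 50.3, 19.8 and 37.1 CPM, the si46 libraries at 34.6, 54.2, 26.3 and 38.0 CPM and the si47 libraries at 48.7, 54.6, 34.1 and 39.8 CPM. The groups under siRNA overlapped each other almost wholly. Its log2 fold changes were 2.42, 2.44 and 2.65 (SE 0.280, 0.280 and 0.279) for si45, si46 and si47. PLK3 (ENSG00000173846, chromosome 1, 44800225 to 44805990) ran from 5.29 to 9.54 CPM in siNTC, and from 12.7 to 26.5, 19.8 to 33.3 and 26.4 to 40.8 CPM in si45, si46 and si47. Depletion raised it on the log2 scale by 1.501 with si45 (SE 0.225), by 1.87 with si46 (SE 0.223) and by 2.10 with si47 (SE 0.222). The mitotic relatives did not pass: PLK1 had a mean log2 fold change of -0.16 (SE 0.0939, edgeR adjusted p = 0.349) and PLK4, the kinase of centriole duplication, one of -0.37 (SE 0.18, edgeR adjusted p = 0.234). PLK5 had at most 5 counts in any library.

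PHLDA3 (ENSG00000174307, chromosome 1, 201464383 to 201469237, minus strand) encodes a protein that is little more than a lipid-binding PH domain and competes with the survival kinase AKT for the membrane. Control libraries ran from 9.02 to 17.97 CPM, those of si45 from 31.0 to 42.9, of si46 from 37.2 to 47.5 and of si47 from 51.1 to 64.4 CPM. The si47 libraries lay above all other libraries. Its increase was 1.53 (SE 0.160) with si45, 1.74 (SE 0.159) with si46 and 2.10 (SE 0.159) with si47 on the log2 scale, and the adjusted p of the mean contrast, 4.7e-11 in edgeR, was the lowest of the 9. Its paralogs PHLDA1 and PHLDA2 had mean log2 fold changes of -0.07 (95% interval -0.41 to 0.27) and -0.04 (-0.31 to 0.24). Of 16 genes of AKT signalling, 16 were tested and 1 was lower, AKT2 (-0.28, SE 0.0822, edgeR adjusted p = 0.0291). With 7.14% of all genes changed and 3.53% lower, a count of 1 in 16 is near the background. The count for that list was 0 without any 1 of the 4 siNTC libraries, without si45 replicate 1 or 2, and without si47 replicate 1.

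GDF15 (ENSG00000130513, chromosome 19, 18374731 to 18389176) encodes a secreted stress cytokine of the TGF-beta superfamily that signals through GFRAL and its partner receptor RET. Its control libraries held 3.53, 2.66, 5.30 and 4.68 CPM, or 17 to 28 counts. The si45 libraries were at 18.01, 27.1, 10.6 and 14.6 CPM, the si46 libraries at 20.8, 48.9, 12.3 and 24.2 CPM and the si47 libraries at 31.4, 75.8, 25.2 and 35.6 CPM. All 12 were above the controls, but in each siRNA group the SD relative to the mean was the widest of the 9 tested targets, and the library numbered 2 was highest in each siRNA group. On the log2 scale the rise came to 2.14 with si45 (SE 0.549), 2.72 with si46 (SE 0.539) and 3.38 with si47 (SE 0.532), with edgeR adjusted p of 0.0951, 0.0158 and 0.0014. The si45 value passed without si46 or si47 replicate 2 (0.0361 and 0.0322), and the si46 value did not pass without siNTC replicate 1 or 2 (0.0560 and 0.0559). GFRAL had 0 counts in all 16 libraries. RET stood at 3.30 ± 1.64 CPM in controls and 4.21 ± 2.74 CPM over the 12 knockdown libraries (log2 fold change 0.35, SE 0.443, edgeR adjusted p = 0.722).

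ZMAT3 (ENSG00000172667, chromosome 3, 179017223 to 179072279, minus strand) encodes a zinc finger protein that binds RNA and acts on its splicing and stability. Control libraries held 36.2 to 44.3 CPM, si45 libraries 69.5 to 115, si46 libraries 79.6 to 119 and si47 libraries 99.6 to 161 CPM. The 3 siRNA groups overlapped each other and none reached down to the controls. The siRNAs raised it by 1.26, 1.35 and 1.75 (SE 0.166 each) on the log2 scale, with edgeR adjusted p of 1.2e-04, 4.2e-05 and 6.1e-07. Of its relatives ZMAT1, ZMAT2, ZMAT4 and ZMAT5, 0 passed in edgeR over the mean of the siRNAs, beside 7.14% of all genes. Each had an unadjusted p above 0.05 there, with mean log2 fold changes from 0.04 for ZMAT2 to 0.32 for ZMAT4. Under si47 alone ZMAT1 had a value of 0.71 (unadjusted p = 0.0201, edgeR adjusted p = 0.125).

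TRIAP1 and AEN were the most abundant of the 10 in the controls and had the smallest changes. TRIAP1 (ENSG00000170855, chromosome 12, 120443961 to 120446412, minus strand) encodes a small mitochondrial protein that works with PRELI proteins in lipid transfer and opposes cell death. It was at 142, 129, 184 and 140 CPM in controls. With si45 it was at 179, 165, 215 and 207 CPM, with si46 at 172, 175, 193 and 192 CPM, and with si47 at 197, 230.8, 222 and 232 CPM. The si47 libraries were all above the controls, as for 7.41% of all genes, while those of the other siRNAs overlapped siNTC replicate 3 at 184 CPM. Fitted log2 differences from siNTC were 0.36 (SE 0.1004), 0.30 (SE 0.1004) and 0.57 (SE 0.1003), with edgeR adjusted p of 0.0602, 0.0946 and 1.95e-04. Without siNTC replicate 3 both of the first passed (0.48 and 0.42, adjusted p = 0.00708 and 0.0156). Without si45 replicate 2 the si45 value also passed (0.44, adjusted p = 0.0293). TRIAP1P1, its processed pseudogene, had 0 counts in every library. Of 6 listed partners of TRIAP1, 6 were tested and 0 changed in edgeR, DESeq2 or limma-voom over the mean of the siRNAs. In edgeR 7.14% of all genes changed in that comparison. 1 of the 6 partners had an unadjusted p under 0.05, beside 20.4% of all genes, so both counts are near the background.

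AEN (ENSG00000181026, chromosome 15, 88621296 to 88632282) encodes a nuclear exonuclease that takes part in p53-dependent cell death. Its controls lay at 136 to 174 CPM, its si45 libraries at 196 to 217, its si46 libraries at 189 to 201 and its si47 libraries at 194 to 247 CPM, with no overlap between control and knockdown libraries. For si45, si46 and si47 the log2 differences were 0.36 (SE 0.0886), 0.29 (SE 0.0886) and 0.498 (SE 0.0885), with edgeR adjusted p of 0.0260, 0.0568 and 2.09e-04. The si45 value did not pass without siNTC replicate 2 or 4 or si45 replicate 1 or 4 (adjusted p = 0.0637 to 0.129). The si46 value passed without siNTC replicate 3, si45 replicate 3 or si47 replicate 1 (0.0432 to 0.0480). ISG20, a related exonuclease with 2 to 11 counts in the controls, rose by 1.65 (SE 0.448, edgeR adjusted p = 0.0187), and ISG20L2 had a value of 0.03 (SE 0.0738).

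In CPM, the abundant TRIAP1 and AEN gained more on average than PLK2, PHLDA3, GDF15, PLK3 and BTG2, and less than ZMAT3 and CDKN1A. All of these other genes had larger fold changes, and the gains in CPM were not tested against each other. Over the 12 knockdown libraries TRIAP1 gained 49.6 CPM on average and AEN 48.8 CPM, while PLK2 gained 33.1, PHLDA3 33.1, GDF15 24.7, PLK3 18.8 and BTG2 13.1 CPM. ZMAT3 gained 70.5 CPM and CDKN1A 346 CPM.

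The siRNAs were then compared with each other. The log2 fold change was highest under si47 for 9 of the 9 tested targets, lowest under si45 for 6 and lowest under si46 for BTG2, TRIAP1 and AEN. In the direct tests over all genes, however, 0 of the 9 passed in any of the 3 pairs (edgeR), in which 0.169% of all genes differed between si47 and si45, 0.0493% between si47 and si46 and 0.0282% between si46 and si45. At an unadjusted p under 0.05, 7 of 9 differed between si47 and si45, 5 between si47 and si46 and 1 between si46 and si45, beside 10.4%, 7.29% and 4.09% of all genes. DESeq2 called 2 and limma-voom 1 between si47 and si45, beside 1.08% and 0.155% of all genes, and both called 0 in the other pairs. CDKN1A was higher in si47 than in si45 by 0.9997 on the log2 scale (95% interval 0.48 to 1.52, edgeR adjusted p = 0.122). For PHLDA3 the log2 difference was 0.57 (0.28 to 0.86, edgeR adjusted p = 0.0775) and for GDF15 it was 1.25 (0.28 to 2.21, edgeR adjusted p = 0.321). PLK2 had the difference nearest to 0 relative to its error, 0.23 with a 95% interval from -0.27 to 0.73. Libraries of si45 and si47 with the same replicate number deviated together, and with that number as a block PHLDA3, ZMAT3, PLK3 and GDF15 were higher in si47 than in si45 (edgeR adjusted p = 0.00485, 7.1e-04, 0.0226 and 0.00467). The block raised the calls over all genes as well, to 2.8% in either direction and 1.31% higher. Without si47 replicate 3 the PHLDA3 and ZMAT3 differences passed (0.62 and 0.60, adjusted p = 0.0389 and 0.0326), beside 1.02% of all genes, and without siNTC replicate 2 the CDKN1A difference did (0.9984, adjusted p = 0.00714).

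The spread within the siRNA groups followed the replicate number. Over the 27 combinations of a tested target and an siRNA, the library numbered 3 was the lowest of its 4 in 20 and the library numbered 2 was the highest in 17. Among all genes tested, the library numbered 3 was lowest in 28.8%, 26.2% and 26.2% of genes in si45, si46 and si47. The share of all genes highest in the library numbered 2 was not taken. The 27 combinations come from the same 12 libraries and are not independent of each other. The 7 exceptions to the library numbered 3 being lowest were TRIAP1 under all 3 siRNAs, AEN under si46 and si47, PHLDA3 under si45 and PLK3 under si46. In siNTC the library numbered 3 was lowest for BTG2 alone and highest for 4 of the 9. TPX2 itself was highest in the library numbered 3 of each siRNA group (121, 93.8 and 76.3 CPM).

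**Figure D3:**
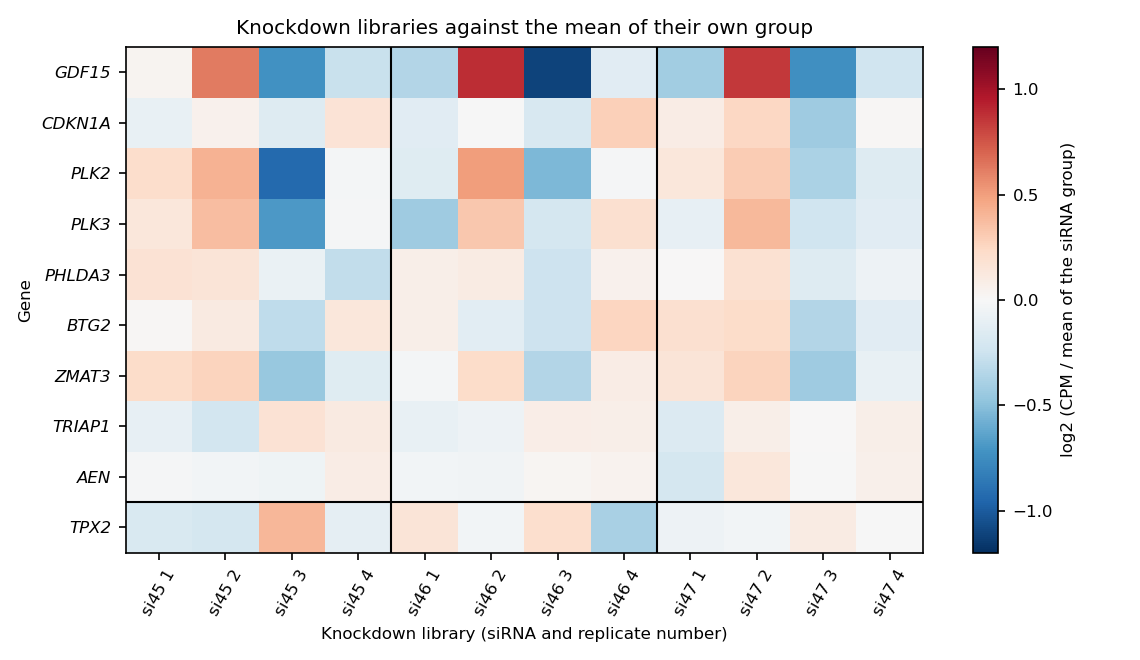
Each of the 12 knockdown libraries (horizontal axis) set against the mean of its own siRNA group as log2 of the CPM ratio (colour) for the 9 tested targets and TPX2 (vertical axis). The columns numbered 3 are blue for CDKN1A, BTG2, ZMAT3, PLK2, PLK3 and GDF15 under every siRNA, and red for TPX2.

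Residual TPX2 was also set against the targets across the 12 knockdown libraries, in 9 relations with Benjamini-Hochberg adjustment and p-values from 100000 permutations. Lower TPX2 went with a higher target for 7 of the 9. Among all 14192 other genes tested, 4.71% had an r at or below that of the weakest of these 7 (-0.655), taken on the log2 CPM of edgeR. Pearson's r on the log2 scale was -0.74 for CDKN1A (p = 0.00387, adjusted 0.0116; Spearman's rho -0.78, p = 0.00371), -0.80 for ZMAT3 (p = 0.00147, adjusted 0.00662; rho -0.73, p = 0.00838) and -0.86 for PLK3 (p = 7.7e-04, adjusted 0.00662; rho -0.81, p = 0.00219). It was -0.75 for PLK2, -0.69 for GDF15, -0.68 for BTG2 and -0.65 for PHLDA3 (adjusted permutation p = 0.0156 to 0.0259), of which PLK2 had a rho of -0.59 that did not pass (adjusted p = 0.0625). For TRIAP1 r was -0.09 (permutation p = 0.794) and for AEN -0.37 (permutation p = 0.245). Leaving out the 2 libraries farthest from the median TPX2, si45 replicate 3 and si46 replicate 4, gave r from -0.88 for ZMAT3 to -0.67 for PLK2 among the 7. For TRIAP1 it moved r to -0.53 and for AEN to -0.51, so the weak pooled values of these 2 genes rest in part on those libraries. Since the siRNAs differ in both quantities, the relation was also taken within siRNAs, after centring each group, with an exact test over the 13824 orders of libraries within groups. r was then -0.66 for CDKN1A, -0.72 for BTG2, -0.71 for ZMAT3 and -0.80 for PLK3 (adjusted exact p = 0.0236, 0.0236, 0.0236 and 0.0321). It was -0.74 for PLK2, -0.52 for GDF15 and -0.40 for PHLDA3 (adjusted exact p = 0.0897, 0.191 and 0.385), -0.16 for AEN and 0.38 for TRIAP1. Both this test and the pooled one treat same-numbered libraries of different siRNAs as independent, which the shared pattern of the numbers does not bear out. With the numbers kept together, in an exact test over 24 orders chosen after seeing the data, CDKN1A, ZMAT3 and PLK3 reached the smallest p possible (0.0417) and BTG2 had p = 0.0833. None of the 9 passed after adjustment in that test (0.125 or more). Each siRNA alone has 4 libraries, too few for a correlation of its own.

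**Figure D4:**
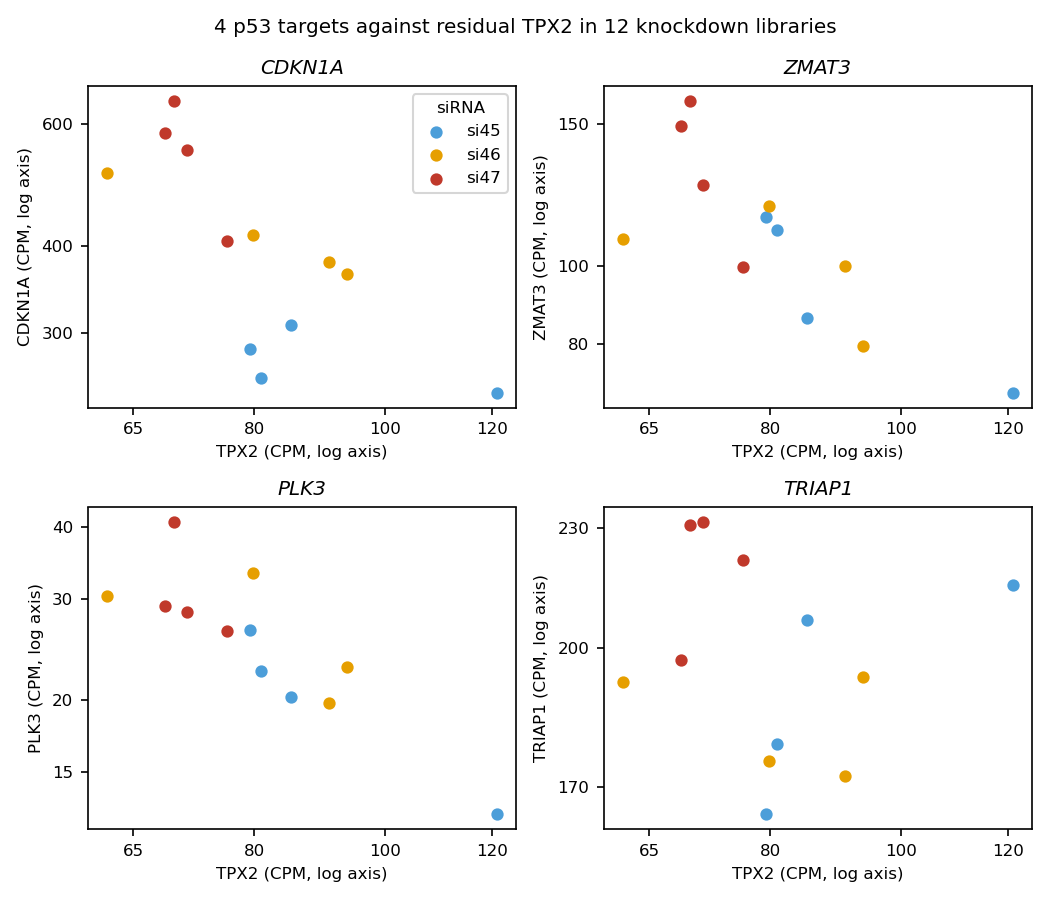
Level of CDKN1A, ZMAT3, PLK3 and TRIAP1 (vertical axes, CPM, log scale) against residual TPX2 (horizontal axis, CPM, log scale) in the 12 knockdown libraries, 1 point per library and 1 colour per siRNA. The points of CDKN1A, ZMAT3 and PLK3 descend from left to right, with si45 replicate 3 at 121 CPM of TPX2 at the far right, and those of TRIAP1 do not.

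The rest of the p53 pathway was read from lists of genes, chosen, like the members, with earlier results of these data known. Of 15 listed regulators of p53, 14 were tested, 2 were higher and 1 lower (median -0.02), beside 7.14% of all genes changed in either direction. MDM2, the ligase that degrades p53 and is itself a p53 target, rose from 98.4 ± 6.64 to 200.5 ± 34.9, 227 ± 31.0 and 285 ± 58.8 CPM in si45, si46 and si47 (mean log2 fold change 1.26, SE 0.123). PPM1D, a phosphatase that dampens the response, rose by 0.9961 (SE 0.117), and CHEK1, a checkpoint kinase, fell by 0.48 (SE 0.113). Of 39 other listed targets of p53, 31 were tested, and 24 were higher and 0 lower over the mean of the siRNAs, beside 3.61% of all genes higher, with a median of 0.93. The counts were 16, 21 and 26 higher under si45, si46 and si47, beside 1.01%, 2.14% and 4.91% of all genes. RPS27L, TP53INP1, FDXR and TNFRSF10B had the lowest p among these, with log2 fold changes of 1.33 (SE 0.0847), 1.62 (SE 0.140), 1.52 (SE 0.134) and 1.38 (SE 0.12).

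Genes known to be repressed through p21 and the DREAM complex were lower in part. Of 26 listed, all tested, 13 were lower and 0 higher, beside 3.53% of all genes lower, with a median log2 fold change of -0.34. CDK1, MCM4, AURKB and MCM3 fell by 0.50 (SE 0.0761), 0.47 (SE 0.0737), 0.51 (SE 0.0863) and 0.43 (SE 0.0778). The counts of lower genes were 1, 7 and 16 under si45, si46 and si47, beside 0.324%, 1.25% and 4.83% of all genes.

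2 other programs that share members with p53 were measured. BTG2, PLK2 and PLK3 are also known as immediate early genes, which respond within minutes to growth factors and stress. Of 25 other immediate early genes, 19 were tested. Over the mean of the siRNAs 12 were higher and 0 lower, beside 3.61% of all genes higher, with a median of 1.04 and a positive value in all 19. Under si45, si46 and si47 the numbers higher were 7, 10 and 13, beside 1.01%, 2.14% and 4.91% of all genes. IER3, ARC, IER5 and IER2 rose by 1.13 (SE 0.135), 1.48 (SE 0.189), 1.04 (SE 0.130) and 0.48 (SE 0.0792). GDF15 is also a target of ATF4, the factor of the integrated stress response. Of 20 ATF4 stress genes 18 were tested. Over the mean of the siRNAs 6 were higher and 0 lower, beside 3.61% of all genes higher, with a median of 0.43. Only 1 was higher under si45 (SESN2), 3 under si46 and 7 under si47, beside 1.01%, 2.14% and 4.91% of all genes. By siRNA, DDIT3 and CHAC1 were called under si47 alone. SESN2, which is a p53 target as well, rose by 1.59 (SE 0.170), DDIT3 by 1.17 (SE 0.232), DDIT4 by 1.03 (SE 0.202) and CHAC1 by 1.08 (SE 0.246). The part of these programs in the rise of BTG2, PLK2, PLK3 and GDF15 was not tested.

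**Figure D5:**
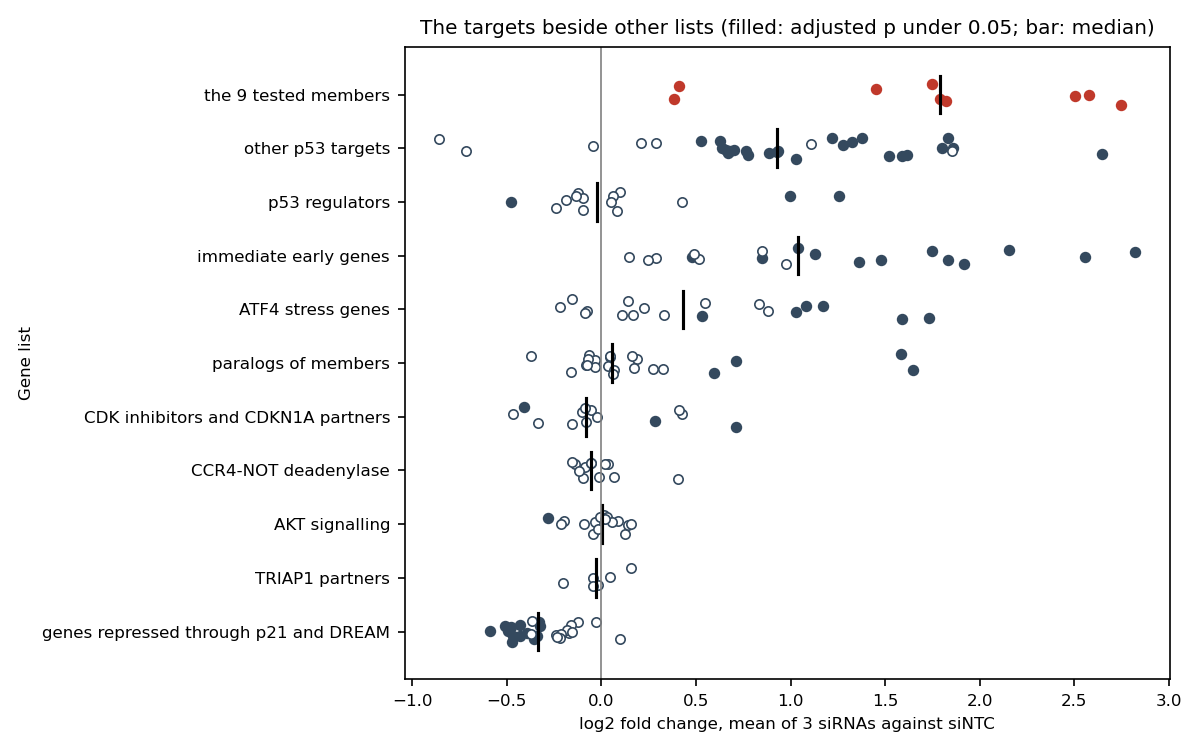
Average response to the 3 siRNAs as log2 fold change from the control (horizontal axis) for the tested genes of each list (vertical axis), 1 point per gene, filled where the adjusted p was under 0.05, with a bar at the list's median. The 9 tested targets and the other p53 targets lie mostly to the right of 0, with medians of 1.79 and 0.93. So do the immediate early genes and the ATF4 stress genes, with medians of 1.04 and 0.43. The genes repressed through p21 and DREAM lie mostly to the left, with a median of -0.34.

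The genes whose pattern over the 16 libraries was most like the mean standardised level of the 9 tested targets were BBC3, H2AC25, RPS27L, FDXR and MDM2, among 10878 genes with a mean of at least 5 CPM. Their Pearson correlations were 0.982, 0.979, 0.979, 0.977 and 0.973, over libraries that include both controls and knockdowns and share their depth between genes. BBC3, which encodes the pro-apoptotic protein PUMA, rose from 24.8 ± 2.55 CPM in siNTC (SD, n = 4) to 160 ± 54.8 CPM over the 12 knockdown libraries. H2AC25, a histone H2A gene, rose from 3.5 ± 1.01 to 16.9 ± 6.70 CPM. The log2 fold changes were 2.64 (SE 0.222) for BBC3 and 2.22 (SE 0.243) for H2AC25.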

How the data were processed

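The authors deposited 1 table of raw counts per Ensembl gene, whole numbers without normalization. Per the labels' protocols, libraries were made with the QuantSeq 3' kit from Lexogen with 15 PCR cycles and sequenced as single-end reads. The submitters' processing notes name GRCh38, FastQC 0.11.7, STAR 2.7.2b, edgeR 3.36.0 and limma 3.50.3, with no roles. Counter, annotation, strand use and handling of duplicates are not given in the sources used here, so reads of overlapping genes on opposite strands may be mixed. Intervals cover what the replicates show.

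Each column name gave an siRNA and a number that fit 1 sample. Symbols matched 58434 of 58787 identifiers. Positions came from GENCODE v29. Mitochondrial transcripts are not analysed here. Within groups, chi-square per degree of freedom was 4.36 to 9.8 over 24 pairs of libraries, so none was a duplicate.

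edgeR 4.0.16 in R 4.3.3 was run with filterByExpr (minimum count 10, minimum total 15), TMM scaling and 1 robust quasi-likelihood model of 4 group means over 16 libraries, with no covariate. p-values were adjusted by Benjamini-Hochberg over 14193 genes per contrast at 0.05. Standard errors are the log2 fold change over the square root of F. TPX2 was also tested by exact permutation of log2(CPM + 1). The pipeline was tested on simulated data. limma 3.58.1 and DESeq2 1.42.0 served as alternatives, beside other scalings, filters, subsets and a replicate block. Same-numbered si45 and si47 libraries deviated together in all 4 pairs (r = 0.12 to 0.242, beside -0.205 to 0.0458 for differently numbered ones). This pairing was read from the counts, since the labels do not state one.

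The rule for naming genes took all 10 members, TPX2, MDM2, RET, GFRAL, the members' paralogs, up to 4 called genes per list with the lowest p over the mean of the siRNAs, and the 5 genes of most similar pattern; some items the rule takes are not reported here. Members and lists were chosen with earlier results of these data known.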

Additional observations from a re-analysis of the deposited data

Results flagged for a closer look

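The CPM of the 10 targets and TPX2 and the total counts gave 48 groups of 4 libraries. In 3 of them a single library was set apart, with most of the group's range lying between it and its nearest neighbour. Chance alone would do this in about 1 in 20 groups, or 2.4 here. For TPX2 it was si45 replicate 3, with 121 CPM where its group otherwise held 79.4 to 85.1 CPM (gap over range 0.862). For PHLDA3 it was si46 replicate 3, with 37.2 CPM where the rest held 46.01 to 47.5 CPM (gap over range 0.858). For SFN it was si46 replicate 4, with 1.68 CPM from 9 counts where the rest held 0 to 0.127 CPM (gap over range 0.925).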

How the results depend on the processing

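All 9 tested targets stayed higher under si47 and over the mean of the siRNAs in every alternative run (26 and 25 settings). Under si45 and under si46 the number called ran from 6 to 9, and 6 targets were called in all settings in each. Leaving out all libraries numbered 3 was chosen after seeing the data. Between si47 and si45 the number of targets that differed was 0 in the main fit, where 0.169% of all genes did. It was 2 with DESeq2 (1.08% of all genes), 1 with limma-voom (0.155%) and 2 with no filter on low counts (0.573%). The replicate block gave 4 (2.8%), a fit without robust estimation 1 (0.176%) and a fit of only those groups 1 (0.127%). With all libraries numbered 3 left out it was 1 (0.537%). Leaving out 1 library each gave 0 to 2, with 0.069% to 1.02% of all genes. Between si47 and si46 the number was 2 with the replicate block, where 108 of 14193 genes differed in place of 7. Between si46 and si45 it was 1 in a fit of only those groups (CDKN1A, 0.60, edgeR adjusted p = 0.0125), where 5 of 13359 genes differed. The causes were not tested. Beside the si47 to si45 difference, the block moved no count of targets by over 1.5 times against siNTC. Same-numbered libraries also deviated together more than all differently numbered ones between si45 and si46 (lowest r 0.0716 against at most 0.058). The same held between si46 and si47 (0.0854 against 0.0741) and between siNTC and si45 (0.0752 against 0.0648). Between siNTC and si46 and between siNTC and si47 the ranges overlapped (lowest r 0.0387 and 0.0188 against at most 0.0987 and 0.0882). The block also added TRIAP1 and GDF15 under si45 and TRIAP1 and AEN under si46 (edgeR adjusted p = 0.00203, 8.9e-05, 0.00761 and 0.0109). With the block 577 and 1073 of all 14193 genes were called under si45 and si46, in place of 190 and 482. Between si46 and si45, the ZMAT3 value of 0.09 ran from -0.0375 (without si45 replicate 3) to 0.188 when 1 library was left out. The PLK2 value of 0.01 ran from -0.199 (without si46 replicate 2; -0.198 without si45 replicate 3) to 0.184 when 1 library was left out, and was -0.0566 with all libraries numbered 3 left out. With at least 10 counts required in every library 7 immediate early genes were called in place of 12, since fewer were tested. Leaving out 1 library each, the number of genes called over the mean of the siRNAs ran from 0 to 1 for AKT signalling. It ran from 1 to 4 for inhibitors and partners of CDKN1A and from 2 to 4 for paralogs (2 without siNTC replicate 3). With at most 1 mismatch 0 targets had a p53 site, and with 3 there were 2. The wider windows planned for that search were not run, since no genome sequence was used here. SFN, at 0 to 9 counts, sets the limit that depth puts on these targets.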
